A study of Caenorhabditis elegans with 7 samples.

Results

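The regions described are the 348 places on chromosome V of the nematode Caenorhabditis elegans that the authors' combined peak list calls bound by PHA-4::GFP, out of 2436 in the whole list. They were taken by chromosome name alone, so strength, width, spacing and replicate support played no part in the choice. The replicate 1 list holds 70 of its 418 peaks on this chromosome and the replicate 2 list 271 of its 1834. Chromatin came from young adult hermaphrodites of strain OP37, grown at 20 °C. These worms carry the mutation unc-119(ed3) III and the transgene wgIs37, which joins a working unc-119(+) to the tagged gene pha-4::TY1::EGFP::3xFLAG. All 7 sequenced samples share this genotype and stage: 2 ChIP samples of replicate 1, 2 ChIP samples of replicate 2, and 3 input samples of replicate 2, the input being sheared chromatin set aside before the antibody step. The tagged protein is made from a transgene put in by particle bombardment in addition to the worm's own pha-4, and whole worms were used, so occupancy is a mixture over tissues. Material without the tag, or precipitated without the anti-GFP antibody, was not analysed here.

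PHA-4 is the worm's FoxA protein, a forkhead transcription factor that opens and occupies regulatory DNA of foregut genes and specifies the pharynx. In later life it is also active in the intestine and somatic gonad and is known for its part in the long life of food-restricted worms. Worm autosomes have a gene-rich, little recombining centre and 2 arms that recombine more and carry more repeats. Chromosome V is known for large, fast-changing gene families on its arms, chemoreceptor genes among them.

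Each peak comes with its first and last base in WormBase WS190 coordinates and a q-value, which is the authors' own value for that peak. The q-value is a measure of how surely a region was called and not of occupancy, and "strength" is used here only as a short name for −log10 q. Strength went with width: their Spearman rho across the 348 peaks was 0.46, and 0.45 to 0.49 on each of the other 5 chromosomes. Every q on V lay under 0.01. The lists give no read counts, so depth is unknown, and values of strength are compared within a list only. The combined list is named as that of both replicates and is therefore not treated as independent of the replicate lists. Peaks are not replicates, and where V is set against the other chromosomes an exact, 2-sided permutation test with the chromosome as unit was used, whose smallest possible p with 6 chromosomes is 0.167. No such test can pass 0.05, and differences between chromosomes are therefore descriptions, given with their intervals.

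PHA-4::GFP regions were sparse on chromosome V. It had 16.7 combined peaks per Mb, against 26.5 on the other 5 chromosomes pooled and 25.4 to 29.9 on each of them, and V stood last of 6 (exact permutation p = 0.167, adjusted p = 0.583 over 7 results). The ratio of V to the rest was 0.63, with a 95% interval of 0.56 to 0.70 that covers counting error only. Replicate 2 gave 12.99 peaks per Mb on V and 19.9 elsewhere, a ratio of 0.65. Replicate 1 gave 3.36 on V and 4.42 elsewhere, a ratio of 0.76, and there V was not the sparsest: chromosome I had 1.73 peaks per Mb. Against II, III, IV and X alone the V ratio was 0.63 in the combined list, 0.66 in replicate 1 and 0.62 in replicate 2.

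The sparseness was not even along the chromosome. Cut into 3 equal parts of the covered length, which runs from base 47887 to base 20905493, V held 76 peaks in the left part, 169 in the centre and 103 in the right part. These are 10.9, 24.3 and 14.8 peaks per Mb. The central part thus held 48.6% of the V peaks (95% interval 43.2 to 54.0), where 40.8% of all 2436 peaks lay in the central part of their chromosome. This was the highest central share of the 6 chromosomes, with the others at 33.2% to 46.4% (exact permutation p = 0.333, adjusted p = 0.667). In the replicate 2 list chromosome I stood above V, with 46.5% on V and 51.1% on I. With only the strongest peak kept in each 50 kb, the central share was 40.8% on V (64 of 157, 95% interval 33.0 to 48.9) and 36.6% elsewhere (34.6% to 39.7% by chromosome). The right part outnumbered the left in all 3 lists, with 19 against 14 peaks in replicate 1 and 85 against 60 in replicate 2. In replicate 1, 5 of the 19 are pieces of 1 combined region, 20740549 to 20760597. Combined peaks found in replicate 1 numbered 13 in the left part and 14 in the right.

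In windows of 1 Mb, 3 windows near the middle of V were densest, those starting at 8, 10 and 11 Mb, with 29 peaks each. The emptiest was the window from 3000001 to 4000000 with 6 peaks, then the one from 18000001 to 19000000 with 7, while 3 windows had 8. Windows with fewer than 10 peaks made up 6 of the 20 complete windows on V and 3 of the 77 on the other chromosomes. Of 10 equal parts of V, the last held 39 peaks (18.7 per Mb), the one before it 18 (8.63 per Mb) and the first 22 (10.5 per Mb). Past 20 Mb, replicate 2 held 22 of the 23 combined peaks, where it held 71.8% of all V peaks and 68.9% of the whole list. Replicate 1 held 4 of the 23, where it held 15.4% of the whole list. This window was singled out after its values were seen.

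**Figure D1:**
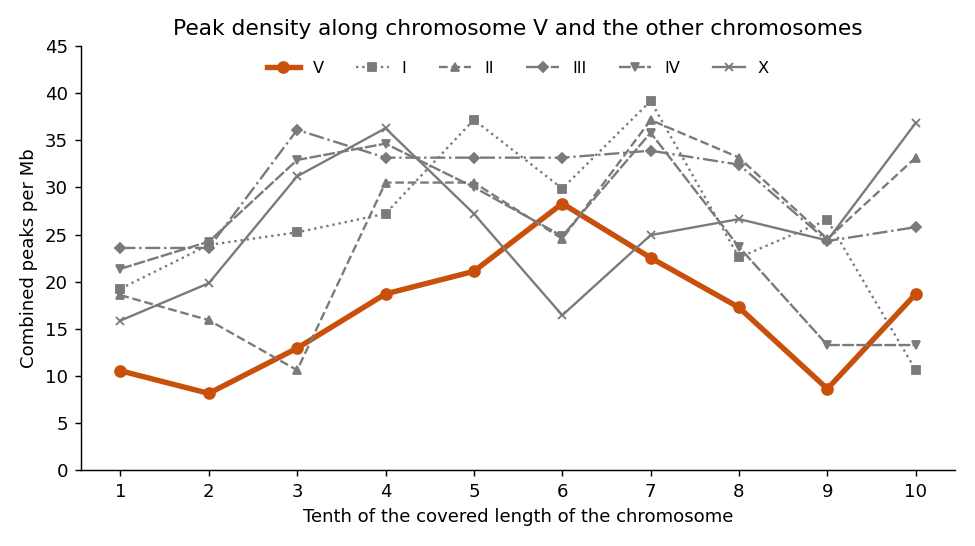
Combined peaks per Mb (vertical axis) in each of 10 equal parts of the covered length (horizontal axis) of chromosome V (thick line) and of I, II, III, IV and X (thin lines). V is highest in part 6 with 28.3 per Mb and lowest in parts 2 and 9 with 8.15 and 8.63, and its last part has 18.7.

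Spacing differed in its long range and little in its short range. The median gap between neighbouring peaks was 32251 bp on V and 18805 bp elsewhere, while the 25th percentile was 4269 bp on V and 3591 bp elsewhere, and the 10th was 588 bp on V and 743 bp elsewhere. The 75th percentile was 81060 bp on V and 52116 bp elsewhere. The shortest gap on V was 206 bp, and over all chromosomes it was 200 to 203 bp in the 3 lists, so the lists hold no peaks closer together than 200 bp.

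In the combined list, long stretches without a peak were more common on V. It had 9 gaps over 250 kb, which took up 16.6% of its covered length, while the other chromosomes had 1 to 5 such gaps each on 2.5% to 8.21% of theirs. The longest ran from 17755467 to 18346019 (590551 bp), and the next from 2882047 to 3390980 (508932 bp). After these came 19535188 to 20005413 (470224 bp), 1344289 to 1767129 (422839 bp) and 773604 to 1106673 (333068 bp). All 5 lie in the outer parts. The longest gap on any other chromosome was 380988 bp, on X. In replicate 2, V had 14 gaps over 250 kb on 24.3% of its covered length and I had 9 on 23.3%, and the longest gap was 590569 bp on V and 594696 bp on I. V did not stand out in the replicate 1 list, where such gaps took up 79.1% of V and 92.5% of I and numbered 24 on V, 26 on IV and 27 on X. Of these 5 gaps, 4 held no peak of either replicate list, and the one from 1344289 held 2 replicate 2 peaks that the combined list lacks. A gap means that no region passed the authors' threshold, and at unknown depth and mappability it does not show that the stretch was unbound.

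In the combined list, fewer V peaks had a near neighbour. Fixed limits were used for near neighbours, for long gaps and for sparse windows. None of these was adjusted for peak density, which was lower on V, so they are not traits separate from it. A neighbour within 10 kb was found for 192 of the 348 peaks (55.2%, 95% interval 49.8 to 60.5), where the share over all combined peaks was 60.0%. V was the lowest of 6 in this, with the others at 58.2% to 64.2% (exact permutation p = 0.167, adjusted p = 0.583). V was also lowest in replicate 2, with 43.9% on V and 53.7% to 60.9% on the others, but not in replicate 1, with 34.3% on V and 7.69% on I. Joining peaks at most 10 kb apart left 156 single peaks, 49 pairs, 18 groups of 3 and 9 groups of 4 or more. No group on V had more than 5 members, while the other chromosomes reached 7 or 8. The largest V group also had 5 peaks in each replicate list, where the others reached 5 to 8 in replicate 2 and 2 to 5 in replicate 1. In replicate 1, the 5 pieces of the combined region 20740549 to 20760597 form a group of this size. They are among the 24 replicate 1 peaks on V with a neighbour. Of the 4 groups with 5 peaks, the one from 20407527 to 20420438 had the smallest q (1.25e-13), and all 5 of its peaks were found in replicate 2 and 1 in replicate 1. The group from 12869843 to 12880786 had 2 of its 5 in replicate 2, and that from 19520838 to 19535188 all 5. Their smallest q-values were 3.18e-12 and 6.49e-12. The last group, 11069096 to 11082911, had a smallest q of 4.93e-09. Of the 9 groups with 4 or more peaks, the one with the strongest member ran from 11529494 to 11541887 (q = 5.01e-50). The strength of one V peak was unrelated to that of the next along the chromosome (Spearman rho 0.01 over 347 neighbours, given as a description). Peaks with a neighbour had a median strength of 3.84 and a median width of 581 bp, while lone peaks had 3.25 and 455.5 bp.

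**Figure D2:**
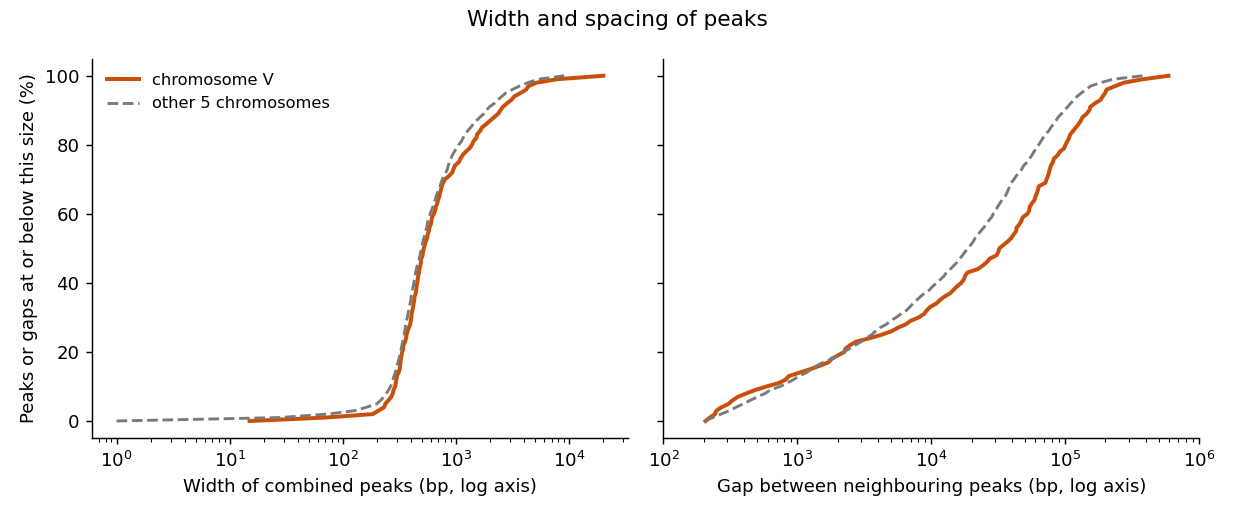
Cumulative share (vertical axis, %) of combined peaks by width (left, bp, log axis) and of gaps between neighbouring peaks (right, bp, log axis), for chromosome V (solid) and the other 5 chromosomes (dashed). The gap curves cross among the short gaps and then part, with medians of 32251 bp on V and 18805 bp elsewhere, and the width curves lie close up to the median and part most among the wider peaks.

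Although sparse, V carried a large share of the strongest regions. It held 17 of the 50 strongest combined peaks (34.0%, 95% interval 21.2 to 48.8), against 14.3% of all combined peaks and 20.95% of the covered length. No other chromosome had more than 8 of these 50. The replicate lists, each ranked by itself, gave 15 of 50 on V in replicate 1, where III had 11 and II had 10, and 17 of 50 in replicate 2, where the next was 8. These counts are of peaks and not of separate places. Replicate 1 ranks 11, 40 and 45 are pieces of 1 combined region, 20740549 to 20760597. Combined ranks 1 and 46 lie in 1 replicate 2 peak, 723569 to 731896. Such pieces were not counted on the other chromosomes. The share of V in the combined list was smaller once weaker peaks were added, though it did not fall at every step. V had 21 of the 100 strongest (21%), 38 of the 200 (19%) and 52 of the 300 (17.3%). It had 96 of the 500 strongest (19.2%) and 149 of the 1000 (14.9%). The median strength of V peaks, 3.50, was close to that of the rest, 3.41 (range over the others 3.29 to 3.54, exact permutation p = 0.5, adjusted p = 0.667). The upper quartile was 6.89 on V and 5.33 elsewhere, and the highest of the other chromosomes reached 5.81. In the replicate lists the upper quartiles were 6.34 on V and 4.86 elsewhere (replicate 1) and 5.79 on V and 5.01 elsewhere (replicate 2). The highest of the other chromosomes was III in both, with 5.04 in replicate 1 and 5.14 in replicate 2. Without the region 20740549 to 20760597 and the peaks inside it, the V values were 6.87 (combined), 5.37 (replicate 1) and 5.76 (replicate 2).

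**Figure D3:**
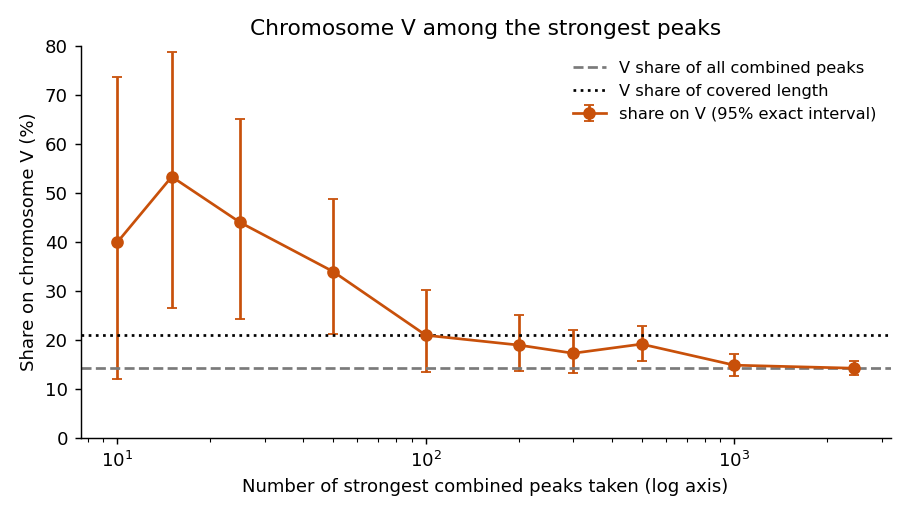
Share of chromosome V (vertical axis, %) among the strongest combined peaks, as the number taken grows along the horizontal log axis. Points carry 95% exact binomial intervals, the dashed line is the share of V among all combined peaks (14.3%) and the dotted line its share of the covered length (20.95%). The share is 53.3% of the first 15, 34.0% of the first 50 and 21% of the first 100.

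**Figure D4:**
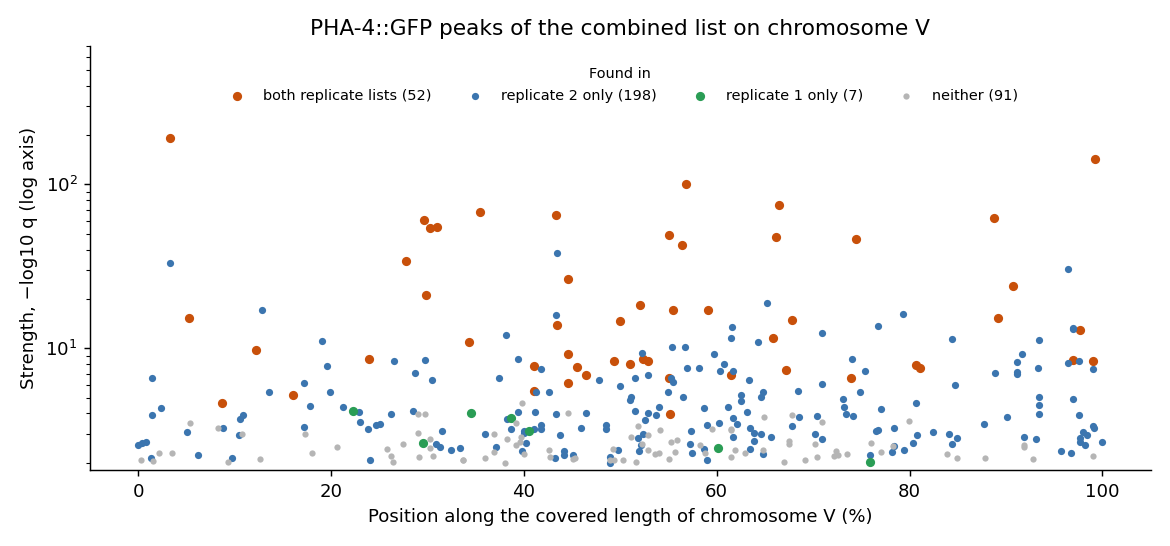
Strength (vertical log axis, −log10 q) of the 348 combined peaks against position along the covered length of V (horizontal axis, %), coloured by the replicate lists in which each was found. The strongest peak lies 3.25% along the chromosome and the second strongest at 99.3%, and both are in both replicate lists.

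Widths followed the same form. The median V peak measured 519 bp, against 495 bp elsewhere (other chromosomes 467 to 550 bp, exact permutation p = 0.667, adjusted p = 0.667), but the upper quartile was 1061 bp on V and 877 bp elsewhere. The order of the medians turned in both replicate lists. They were 597 bp on V and 628 bp elsewhere in replicate 1, and 483 bp on V and 491 bp elsewhere in replicate 2. Regions wider than 2000 bp numbered 46 on V (13.2%, 95% interval 9.84 to 17.2), where 9.40% of all combined peaks were that wide and the other chromosomes ranged from 7.73% to 10.8%. These 46 regions held 50.9% of the bound bases of V, while regions of that width held 36.4% of the bound bases elsewhere. Above 5000 bp V had 8 combined regions and II had 10. In replicate 1, 20 of 70 V peaks (28.6%) passed 2000 bp and 32 of 348 elsewhere (9.20%). By chromosome the others ran from 6.49% on IV to 23.1% on I, where 6 of 26 passed. In replicate 2 the shares were 13.7% on V and 8.83% elsewhere. Without the widest region and the peaks inside it, the V shares were 12.97% in the combined list, 26.2% in replicate 1 and 13.3% in replicate 2.

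V was less short of bound bases than of peaks. It had 17.8 kb of peak per Mb, the lowest of the 6 chromosomes, and the rest had 22.5 kb per Mb. In replicate 2, V had 13.9 kb per Mb and the rest 16.4 kb, with chromosome I below V at 13.0 kb. In replicate 1 the direction turned against the pooled rest only, with 4.35 kb per Mb on V and 3.92 kb elsewhere. By chromosome, II, III and X had more than V (4.65, 4.60 and 4.72 kb), and IV and I had less (3.54 and 2.05 kb). Without the widest region V had 3.69 kb per Mb in replicate 1, which is below the pooled rest. Of the 46 wide regions, 26 lay in the central part of V, 11 in the left and 9 in the right. Their strength ran from 2.18 to 192.6 with a median of 13.58, and 3 of them were found in neither replicate list. They made up 14 of the 15 strongest V regions and 27 of the 50 strongest.

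The 10 strongest regions of V were all found in both replicate lists, at unlike ranks. The strongest, 723560 to 728365, had q = 2.52e-193 in the combined list, q = 2.42e-36 in replicate 1 and q = 9.61e-178 in replicate 2. The nearest peak to its left ended 191160 bp away. Replicate 2 ran it on to 731896 as a single peak of 8328 bp. The combined list cut that interval in 2, leaving 269 bp between the strongest region and a second peak from 728635 to 731896 (rank 46, q = 6.65e-34). Replicate 1 called only the left piece, from 723874 to 728276.

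Other leading regions differed in how they ranked in the 2 replicate lists. The region 11887657 to 11890019 ranked 3 in replicate 1 (q = 8.85e-25) and 8 in replicate 2 (q = 1.32e-73), with 2083 bp in replicate 1 and 2402 bp in replicate 2. A pair of regions in the left part, 6514884 to 6517767 and 6357191 to 6361350, ranked 5 and 6 in replicate 1 (q = 1.07e-20 and 1.45e-20), and 31 and 49 in replicate 2 (q = 1.46e-29 and 1.97e-22). By contrast 13907416 to 13910950, 7431505 to 7435424 and 9074224 to 9077304 ranked 9, 12 and 11 in replicate 2 but 30, 43 and 44 in replicate 1, with q from 1.15e-08 to 2.35e-11. At 18558264 to 18560525, replicate 2 called 2260 bp (q = 3.96e-56) and replicate 1 only the right 474 bp (q = 7.44e-05). The lists differ in length, so these ranks do not measure a change between replicates.

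The stretch of the left part between 5838625 and 6517767 held 5 of the 21 strongest V regions, and besides the pair named above these were 6220741 to 6230123 (9383 bp, q = 3.92e-61), 5838625 to 5846384 (7760 bp, q = 7.77e-35) and 6276053 to 6278586 (q = 8.61e-22). All 5 were found in both replicate lists. In replicate 1 their smallest q-values ran from 0.000101 to 1.07e-20, and in replicate 2 from 2.73e-13 to 2.57e-33. The stretch was chosen after its values were seen.

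The widest region, 20740549 to 20760597, lay close to the right end of the covered length, where only 1 further combined peak followed. The region measured 20049 bp (q = 4.81e-143), or 5.39% of all bound bases of V. Replicate 2 called 1 peak over it, from 20740681 to 20760577 (q = 5.63e-85). Replicate 1 called 5: 2089 bp from 20740708 (q = 1.47e-08), 2031 bp from 20743018 (q = 0.00191), 6977 bp from 20745614 (q = 3.71e-16), 1912 bp from 20756048 (q = 4.97e-06) and 670 bp from 20758530 (q = 1.46e-09). The next widest after it and 6220741 to 6230123 was 10466413 to 10475719 (9307 bp), which was far weaker: q = 1.95e-15 in the combined list, 0.000805 at best in replicate 1 and 1.81e-07 in replicate 2. Next came 11531812 to 11539779 (7968 bp, q = 5.01e-50) and 5838625 to 5846384 (7760 bp).

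RefSeq's annotation of a later build, WBcel235, places pha-4 itself on chromosome V, between the protein-coding genes srxa-6 and elp-1. The position of pha-4 in WS190 was not among the sources used here, so pha-4 is not placed at any of these regions. At pha-4 itself, signal from the chromosome and from the transgene cannot be told apart.

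Replicate support on V was near that of the whole list. Replicate 1 held 59 of the 348 combined peaks (16.95%, 95% interval 13.2 to 21.3), where it held 15.4% of all, and V was the third highest of 6 chromosomes (exact permutation p = 0.667, adjusted p = 0.667). Replicate 2 held 250 (71.8%, 66.8 to 76.5), where it held 68.9% of all (exact permutation p = 0.667, adjusted p = 0.667). Both lists held 52 (14.9%, with 12.9% overall), and neither held 91 (26.1%, with 28.6% overall). The remaining 198 were in replicate 2 alone and 7 in replicate 1 alone.

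Support on V went with strength. Among the 15 strongest V peaks 14 were in replicate 1. The exception, 9095068 to 9097659, had q = 5.07e-39 in the combined list and q = 8.96e-37 in replicate 2. Replicate 1 held 16 of the next 35, 17 of the next 50, 8 of the next 100 and 4 of the last 148. Replicate 2 held all of the first 100, 82 of the next 100 and 68 of the last 148. Peaks in both lists had a median strength of 13.4 and a median width of 1422 bp, those in replicate 2 alone 3.91 and 494.5 bp, and those in neither 2.38 and 457 bp. Within classes of strength the intervals of V and the rest overlapped. In the class from 5 to 10, replicate 1 held 21 of 71 V peaks (29.6%, 19.3 to 41.6) and 105 of 360 elsewhere (29.2%, 24.5 to 34.2). In the class from 10 to 20 it held 11 of 28 on V (39.3%, 21.5 to 59.4) and 72 of 132 elsewhere (54.5%, 45.7 to 63.2).

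**Figure D5:**
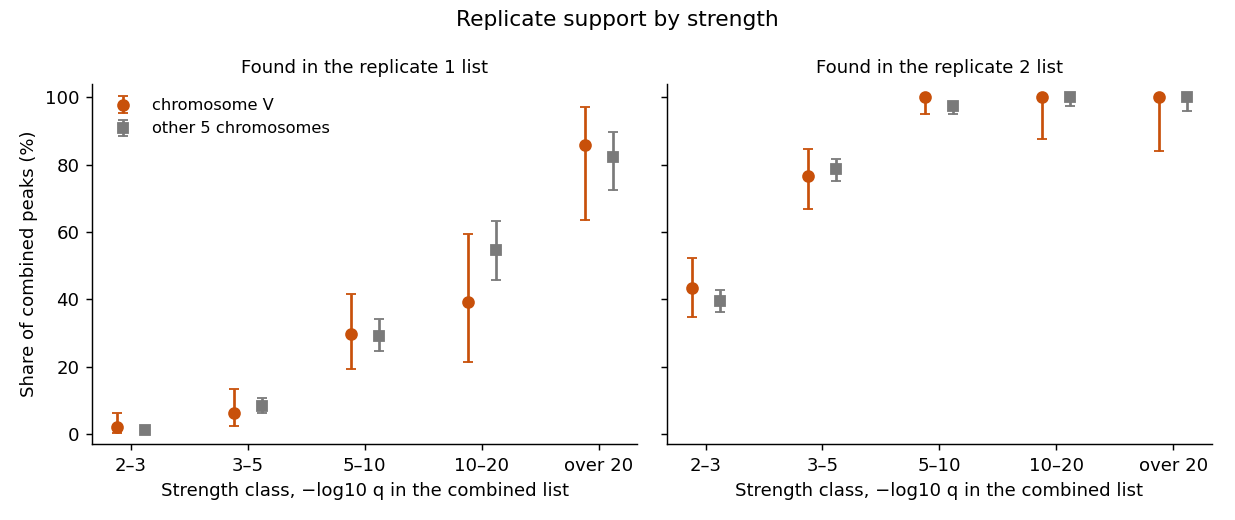
Share of combined peaks (vertical axis, %) found in the replicate 1 list (left) and the replicate 2 list (right) by class of strength (horizontal axis, −log10 q), for chromosome V (circles) and the other 5 chromosomes (squares), with 95% exact binomial intervals. The intervals of V and the rest overlap in every class, and from a strength of 5 upward replicate 2 held every V peak.

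Set directly against each other, the replicates shared most of replicate 1. Of the 70 replicate 1 peaks on V, 61 overlapped a replicate 2 peak (87.1%, 95% interval 77.0 to 93.9), where 82.5% of all replicate 1 peaks did. In the other direction 52 of 271 did (19.2%, 14.7 to 24.4), where 17.5% of all replicate 2 peaks did. Counted in bases, 81.7 kb were shared, which is 90.1% of the 90.6 kb of replicate 1 and 28.2% of the 289.3 kb of replicate 2. For 52 of the 61 overlapping replicate 1 peaks the replicate 2 peak was the wider, and the median ratio of replicate 2 to replicate 1 width was 1.38. Strength in the 2 lists had a Spearman rho of 0.59 over the 61 pairs on V and 0.39 over the 284 pairs elsewhere, and width a rho of 0.79 on V and 0.74 elsewhere. The pairs are not all separate, since the 61 replicate 1 peaks met only 52 replicate 2 peaks. In the widest region, 5 replicate 1 peaks share 1 replicate 2 peak. These rhos are descriptions across peaks that share their libraries, and their difference was not tested.

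Replicate 1 had 9 V peaks that replicate 2 lacked, and replicate 2 had 219 that replicate 1 lacked. In replicate 1 the leading one was 20771413 to 20774423 (3011 bp, q = 3.58e-10, rank 35), to the right of the widest region and missing from both other lists. The other 4 leading ones were weak, from 12596678 to 12597191 (q = 0.00115) down to 4687872 to 4688482 (q = 0.00572), and all 4 were in the combined list. In replicate 2 the leading private peaks were 9095065 to 9097678 (q = 8.96e-37), 20157752 to 20159563 (q = 2.62e-28), 14847128 to 14851057 (q = 1.48e-17), 13653822 to 13658982 (q = 7.12e-17) and 9078030 to 9080657 (q = 1.20e-16). These 5 were 1812 to 5161 bp wide and all were in the combined list. The peaks from 9078030 and from 9095065 lie to the right of 9074224 to 9077304, a leading region of both lists. Ranks could also part in the other direction: 18637930 to 18639021 had rank 17 and q = 8.23e-15 in replicate 1 and rank 1212 and q = 0.00207 in replicate 2.

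The weakest support was at the bottom of the list. Of the 91 V peaks in neither replicate list the strongest were 8348924 to 8349410 (487 bp, q = 2.25e-05), 9339412 to 9339741 (330 bp, q = 9.33e-05) and 6100387 to 6101079 (693 bp, q = 0.000103). The narrowest V peaks measured 15 bp (2074417 to 2074431, q = 0.0074), 37 bp (18361195 to 18361231, q = 0.00739) and 55 bp (19477411 to 19477465, q = 0.00157). Replicate 2 listed the first of these with the same borders (q = 0.00959) and the third as 88 bp, and the second was in neither list. V had 2 peaks under 50 bp, and the other chromosomes had 4 to 8 each.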

How the data were processed

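The authors deposited a q-value per peak, in 1 list for each replicate and 1 for the combined data, made by PeakSeq in WormBase WS190 coordinates per the file headers. Not given in the sources used here were the PeakSeq version, aligner, read filters, merging of samples and the input set against replicate 1. Depth is unknown. Wider regions can reach smaller q-values at equal occupancy.

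Computed here (scipy 1.17.1, pandas 2.3.3, numpy 2.4.6, matplotlib 3.10.9 under Python 3.11.15) were −log10 q, width, rank by q (ties by width, then position), gaps from the end of a peak to the start of the next, and overlap (at least 1 bp shared). WS190 chromosome lengths were not used: covered length spans a chromosome's outermost peaks in any list. Intervals are exact (Clopper-Pearson) binomial. The 7 comparisons of chromosomes used exact permutation tests with the Benjamini-Hochberg adjustment. The counting functions were tested on simulated data.

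The regions, lists and tests were chosen with earlier results of these data known. Named regions are the 10 strongest and 5 widest V peaks, the 3 densest and emptiest windows of 1 Mb, the 5 longest gaps, the groups with most peaks, the 5 strongest peaks private to each replicate, the 3 strongest in neither and the 3 narrowest; others were named after their values were seen. No genome of WS190 was used, so no sequence or gene is given for a region.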

Additional observations from a re-analysis of the deposited data

How the results depend on the processing

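Of 50 values recomputed, 26 stayed inside the 95% interval of the reported value or, for a count, within 1.5 times of it. The rest moved with another list, q threshold or number of strongest peaks, with another rule for overlap, centre or neighbours, or without wide peaks. With either replicate list in place of the combined one, V had 3.36 to 12.99 peaks per Mb, a density of 0.65 to 0.76 of the rest, a median width of 483 to 597 bp, a median strength of 3.23 to 3.42, 34.3% to 43.9% of peaks with a neighbour within 10 kb, and 13.7% to 28.6% of peaks wider than 2000 bp. Elsewhere in the same lists the median width was 491 to 628 bp, the median strength 3.09 to 3.24 and the neighbour share 38.5% to 55.8%. With q under 0.001, V had 10.3 peaks per Mb, a median width of 601 bp, a median strength of 5.47, 26.2% found in replicate 1, 89.7% in replicate 2, 45.3% with a neighbour and 20.1% wider than 2000 bp; elsewhere median width was then 604 bp, median strength 4.79, the shares found in replicates 1 and 2 were 24.2% and 87.6%, and the neighbour share 48.8%. Midpoints within 200 bp left 12.6% found in replicate 1 and 63.5% in replicate 2 on V, and 10.3% and 60.2% elsewhere. The central 50% of V held 65.2% of its peaks, and the central part of 3 held 40.8% once only the strongest peak per 50 kb was kept (36.6% elsewhere). Neighbours within 5 and 20 kb were found for 43.97% and 68.4%. Median strength without peaks over 2000 bp was 3.21. The central 50%, both neighbour limits, the strength without wide peaks and the 20.1% wide share are given for V alone. They do not compare V with the rest. V had 8 of the 15 strongest combined peaks, and this count became 17 of the 50 and 21 of the 100. Tops of unlike size give unlike counts, so these 2 moves do not measure stability.

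The density ratio, the share of wide peaks and the settings without chromosome I or without the widest V peak were added after seeing the data. With 1 condition and 2 replicate lists, the spread between worm cultures could not be estimated. A region missing from replicate 1 was not detected there at unknown depth. Gene density, repeats and motifs along V were not analysed here.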
